A study of Mus musculus with 100 samples.

Results

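The promoters of the mitochondrial ribosomal protein (MRP) genes were examined across all ChIP-seq tables of a study of NCoR, HDAC3 and PGC1b in mouse macrophages. Members were the rows of the 15 tag tables whose listed gene name began with Mrpl or Mrps and whose centre lay at most 2000 bp from the transcription start site (TSS) of that gene. The choice used names and positions and no measured value. It gave 555 rows, of 610301 rows in all and of 134605 rows within 2000 bp of any TSS. The rows belonged to 71 genes, of 78 protein-coding MRP genes in the RefSeq annotation, and fell on 102 separate stretches of the genome, since a stretch bound by several factors had a row in each table.

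Bone marrow-derived macrophages (BMDMs) of wild type (WT) mice were treated with vehicle (Veh) or with KLA (Kdo2 lipid A), which activates TLR4. Where a label gave the time of KLA it was 6 h, and the p300 libraries called Veh are labelled as KLA for 0 h. The labels give the strain as C57Bl6. The proteins precipitated were NCoR, a corepressor; HDAC3, the histone deacetylase of its complex; p65, the main activating subunit of NFκB; Fosl2, a partner of AP-1 dimers; PU.1, the ETS factor that defines the macrophage lineage; PGC1b, a coactivator of genes of mitochondrial biogenesis; the kinase ERK1; and the acetyltransferase p300. PGC1b was also measured in WT cells given DMSO and Veh, DMSO and KLA, or an ERK inhibitor (ERKi) and KLA, and NCoR in WT cells given ERKi and KLA. H3K27ac, the acetylation of histone H3 found at active promoters and enhancers, was measured in WT cells given DMSO and Veh, DMSO and KLA, or RGFP966 (an inhibitor of HDAC3) and KLA. It was also measured, with Veh and with KLA, in NCoR flox/flox cells without Cre (labelled WT) or with LysMCre (NKO), and in PGC1b flox/flox cells without Cre (Pgc1b flox) or with LysMCre (Pgc1b flox Cre). LysM drives Cre in myeloid cells, and the share of cells in which an allele was deleted is not shown by these tables. ERK1 and p300 were also measured in WT bone marrow cells on day 0 and day 4 of culture with RANKL and M-CSF, which drive osteoclast differentiation. The second ERK1 library of day 4 carries another date than the other ERK1 libraries of this culture and lacks the mark of NCoR WT that those carry. Each group held 2 libraries, the labels do not say that these came from separate mice, and p-values therefore measure the spread between libraries, which may be technical.

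The mitochondrial ribosome is built from RNAs encoded by mitochondrial DNA and from proteins that are encoded in the nucleus, made in the cytosol and imported. It translates the few membrane subunits of the respiratory chain that mitochondrial DNA still encodes, and is therefore needed for oxidative phosphorylation. Many MRP promoters are of the housekeeping type, without a TATA box and often shared with a gene on the opposite strand. Factors such as NRF1, GABP of the ETS family, YY1 and the ERR receptors, with PGC1 coactivators, are known to act at genes of this class.

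Values are tags per 10 M, that is, the deposited tag count of a region divided by the total of its library (4.30 to 21.5 M tags) and multiplied by 10 M. A region was tested where any library reached 4 tags (16 for H3K27ac), and 549 of the 555 member rows were tested. A region was called when its adjusted p was below 0.05 and its change more than 2-fold. Macrophage promoters served as a check of the cells. The 10 macrophage marker names stood for 9 genes, since Adgre1 and Emr1 name the same gene. Of these names 9 had promoter regions in the NCoR, HDAC3, p65, PU.1, PGC1b and p300 tables with KLA, with summed levels of 834 to 3040 tags per 10 M. Cd3e, Cd79a and Col1a1, which define T cells, B cells and fibroblasts, had no promoter region in any table, and at most 2 of 6 T cell and 2 of 5 fibroblast markers had one. The B cell marker Ms4a1 had a region in all tables of factors in BMDMs, and its p300 signal was 19.4 to 25 tags per 10 M with Veh and 59.9 to 78.9 with KLA. The part of other cells in the results was not tested.

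Regions away from the start sites carried many of the changes described below, and the sequences of 4 of them are shown first. They were chosen because several factors changed there. Coordinates are those of mm10 (GRCm38), each sequence is written 5′ to 3′ on the strand of the gene, and capitals mark motif matches. The regions are at Mrpl52 (chr14:54427823-54428024, plus strand, centre 1014 bp inside the gene in an intron), Mrpl27 (chr11:94654779-94654986, plus strand, 1091 bp inside the gene in an intron), Mrpl42 (chr10:95500766-95500973, minus strand, 1080 bp inside the gene in an intron) and Mrps28 (chr3:8924800-8925031, minus strand, 1058 bp upstream, intergenic).
Mrpl52: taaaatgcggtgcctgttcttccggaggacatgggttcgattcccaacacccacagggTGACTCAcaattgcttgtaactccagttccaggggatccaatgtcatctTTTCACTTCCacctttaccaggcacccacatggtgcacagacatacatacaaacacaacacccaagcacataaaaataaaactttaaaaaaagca
Mrpl27: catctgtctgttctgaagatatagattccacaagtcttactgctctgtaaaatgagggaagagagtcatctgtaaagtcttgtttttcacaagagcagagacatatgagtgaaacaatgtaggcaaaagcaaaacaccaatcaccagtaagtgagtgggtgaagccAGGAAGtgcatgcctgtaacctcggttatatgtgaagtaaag
Mrpl42: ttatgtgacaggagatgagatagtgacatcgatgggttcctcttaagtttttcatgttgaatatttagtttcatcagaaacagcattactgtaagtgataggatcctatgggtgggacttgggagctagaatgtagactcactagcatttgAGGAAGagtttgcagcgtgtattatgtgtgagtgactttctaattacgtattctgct
Mrps28: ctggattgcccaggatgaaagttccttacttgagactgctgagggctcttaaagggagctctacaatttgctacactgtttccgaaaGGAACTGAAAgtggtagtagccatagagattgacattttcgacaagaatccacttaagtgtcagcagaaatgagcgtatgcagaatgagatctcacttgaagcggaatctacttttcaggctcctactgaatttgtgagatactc
In Mrpl52 the capitals from base 59 are the AP-1 motif TGANTCA, and those from base 108 are, on the reverse strand, GGAA followed by any 2 bases and GAAA, the composite that PU.1 and IRF factors can share. That region was 73.8% soft-masked as repeat. In Mrpl27 and Mrpl42 the capitals are the ETS core AGGAAG, from base 167 and base 152. In Mrps28 they are the ETS-IRF composite, from base 88. The ETS core and the composite were added to the motif list after these sequences had been seen. The ETS core is common: the central 200 bp held it in 46.9% of all rows at 501 to 2000 bp and in 54.4% of member rows there. The fifth sequence is the stretch before the TSS of Mrps9, from the RefSeq promoter table (chr1:42850983-42851232, plus strand), shown because H3K27ac there fell the most with RGFP966.
Mrps9: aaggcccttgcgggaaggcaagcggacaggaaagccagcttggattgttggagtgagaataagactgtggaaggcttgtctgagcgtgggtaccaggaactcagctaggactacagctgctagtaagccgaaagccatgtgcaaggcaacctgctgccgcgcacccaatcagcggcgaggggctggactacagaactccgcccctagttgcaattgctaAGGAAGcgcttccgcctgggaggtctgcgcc
Its capitals are the ETS core, from base 220. That core was in 38.4% of the promoters of all genes and in 32.3% of those of the members.

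Motifs were counted on both strands. RefSeq promoters (250 bases before to 50 after the start, GRCm38) were found for 62 of the 71 genes. The NRF1 core GCGCATGC, which the full palindrome contains, was in 12.9% of these and in 3.05% of 27025 promoters of all genes. The ETS motif CCGGAAGT was in 17.7% against 4.31%, and the YY1 motif AAGATGGC in 16.1% against 3.19%. AP-1 was rarer in the members, with 3.23% against 8.97%, and so was the PU.1 motif, with 1.61% against 3.69%. The ERR motif TCAAGGTCA was in 0% against 0.466%. The 200 bp at the centre of member rows showed that the motifs differed with distance from the TSS. Within 500 bp, 14.4% of member rows held the NRF1 core and 0.215% the PU.1 motif GAGGAAGT, which contains the ETS core, against 4.58% and 4.89% of all rows at that distance. At 501 to 2000 bp the order was the opposite, with no member row holding the NRF1 core and 21.1% holding the PU.1 motif, against 0.694% and 10.3% of all rows. Rows of one stretch in several tables share its sequence, so these shares do not describe independent sites. The 102 stretches cover all distances, and those at 501 to 2000 bp are fewer. The stretch about 543 bp upstream of Mrpl52 had rows in 14 tables.

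Member rows lay close to the start: 465 of the 555 (83.8%) were centred within 500 bp of it. Mrpl52, a large-subunit protein without a bacterial counterpart, had rows in all 15 tables, Mrpl24 and Mrpl48 in 14, and Mrpl45, Mrps16 and Mrps23 in 13. Mrpl47, Mrpl49, Mrpl51, Mrps21 and Mrps34 had rows in 1 table each. Of the 71 genes, 27 (38.0%) had the start of a protein-coding gene on the opposite strand within 1000 bp, against 10.8% of 21787 protein-coding genes. A region there cannot be assigned to either gene: the starts of Mrpl30 and Mitd1 are 28 bp apart, those of Mrps18b and Ppp1r10 72 bp, and those of Mrpl32 and Psma2 205 bp. Distances follow the tables, whose TSS lay over 100 bp from the outermost RefSeq start in 15 genes, among them Mrpl24, Mrpl45, Mrpl48, Mrpl23, Mrps2 and Mrps23.

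The start site of Mrpl52 held the most tags of any member in 4 of the tables of factors with and without KLA. NCoR there was at 177 and 138 tags per 10 M with Veh and 160.4 and 144 with KLA. HDAC3 was at 192 and 182 tags per 10 M with Veh and 139 and 163 with KLA, and PU.1 at 222 and 218 tags per 10 M with Veh and 217 and 245 with KLA. None of the 3 passed the test (adjusted p = 0.868, 0.522 and 0.48). Mrpl17, a large-subunit protein with a bacterial counterpart, led in PGC1b. Its level was 82.2 and 81.4 tags per 10 M with Veh and 84.1 and 70.4 with KLA, and it also led in the table of DMSO and ERKi. Mrpl45, which anchors the ribosome to the inner membrane, led in p300 at 147 and 144 tags per 10 M with Veh and 147 and 134 with KLA. By tags per kb of region, members were near other promoters: the median was 159 in members and 169.5 in other promoters for NCoR, 301 and 311 for PU.1, and 77.7 and 94.6 for PGC1b.

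KLA moved few member regions of NCoR and HDAC3. Of 41 NCoR member regions 5 were called higher and 1 lower (14.6%), where 28.4% of all NCoR regions within 2000 bp of a TSS and 40.1% of all NCoR regions were called. Of 48 HDAC3 member regions 4 were called higher and 3 lower (14.6%), against 24.9% of promoter regions and 38.8% of all regions. Median log2 fold changes were -0.05 in both sets of members. With TMM the HDAC3 calls became 2 higher and 4 lower. Over promoter regions the medians were -0.09 for NCoR and 0.09 for HDAC3, and over all regions 0.10 and 0.27, so that the members lay below the bulk of regions for both proteins.

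p65 and p300 were called more often, in both directions. Of 38 p65 member regions 7 were called higher and 7 lower (36.8%), against 41.7% of promoter regions and 62.4% of all regions, with 29.2% of promoter regions called higher and 12.5% lower and 57% and 5.43% of all regions. The median of the p65 members was 0.06 on the log2 scale, that of p65 promoter regions 0.15 and that of all p65 regions 1.46. Of 33 p300 member regions 6 were called higher and 7 lower (39.4%), against 38.4% of promoter regions and 54.9% of all. Their median was -0.46, that of p300 promoter regions -0.26 and that of all p300 regions 0.65. With TMM scaling, which sets the bulk of regions to no change, these 2 tables shifted by -1.22 and -0.52, and the calls among members became 3 higher and 22 lower for p65 and 5 higher and 16 lower for p300. Promoter regions moved alike: with TMM the medians of members and promoter regions were -1.16 and -1.07 for p65 and -0.98 and -0.78 for p300. The shares of promoter regions and of all regions called with TMM were not counted for any comparison.

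For PGC1b, 5 of 37 member regions were called higher and 2 lower (18.9%), against 14.9% of promoter regions and 22.8% of all. In the separate PGC1b table with DMSO, 2 of 48 were higher and 1 lower (6.25%), against 10.6% and 17.6%. PU.1 had 2 of 41 higher and 1 lower (7.32%), against 17.0% of promoter regions and 26.3% of all. At any fold, 7 PU.1 member regions rose and 14 fell against 9.6% and 51.5% of promoter regions and 14.6% and 55.1% of all, and with TMM the balance turned, to 18 higher and 2 lower. The PU.1 medians with TMM were 0.32 in members and 0.06 in promoter regions. ERK1 had 2 of 25 called, both higher (8%), against 7.31% and 12.9%. For Fosl2, edgeR called 0 of 19 member regions, against 10.3% and 15.6%, with 2 at an unadjusted p below 0.05 and 3 called by DESeq2. With TMM the calls became 5 higher and 4 lower for PGC1b, 1 and 2 for PGC1b with DMSO, 5 and 1 for PU.1 and 2 and 1 for Fosl2. The library with the lowest total was the first Fosl2 KLA library.

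The direction of the calls went with distance from the TSS, as the plot of log2 fold change against distance shows. Over the 9 comparisons of KLA with Veh in factors, the 263 tests of member regions within 500 bp gave 4 calls of a higher level and 17 of a lower one. The 67 tests at 501 to 2000 bp gave 29 higher and 5 lower. The 29 came from 9 stretches of 7 genes (Mrpl52, Mrpl27, Mrpl42, Mrpl57, Mrpl3, Mrpl4 and Mrpl24). A region with few tags with Veh may be in its table through a KLA peak alone, and would then tend to be higher. Examples are Mrpl27 in p300 (9 and 8 tags with Veh) and Mrpl24 in PGC1b (4 and 9). Others are Mrpl42 in PGC1b (1 and 19) and the intron of Mrpl52 in HDAC3 (11 and 7). The 29 calls and the p-values given below for such regions do not allow for this. Measured from the outermost RefSeq start, 1 of the 29 lay within 500 bp, and 4 of the 17 falls and 1 of the 4 rises near the TSS of the tables lay farther than that. All 29 kept their sign with TMM and 23 were still called. A like gradient was present in all promoter regions: NCoR was called higher in 22.4% of them at 501 to 2000 bp and in 8.62% within 500 bp, p65 in 48.6% and 16.9%, p300 in 34.1% and 10.5%, and PGC1b in 15.2% and 5.07%. Among the members, all 6 NCoR calls lay in the 10 regions at 501 to 2000 bp, with 31 regions within 500 bp. For p300, 5 of 6 regions at 501 to 2000 bp and 1 of 27 within 500 bp were called higher.

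**Figure D1:**
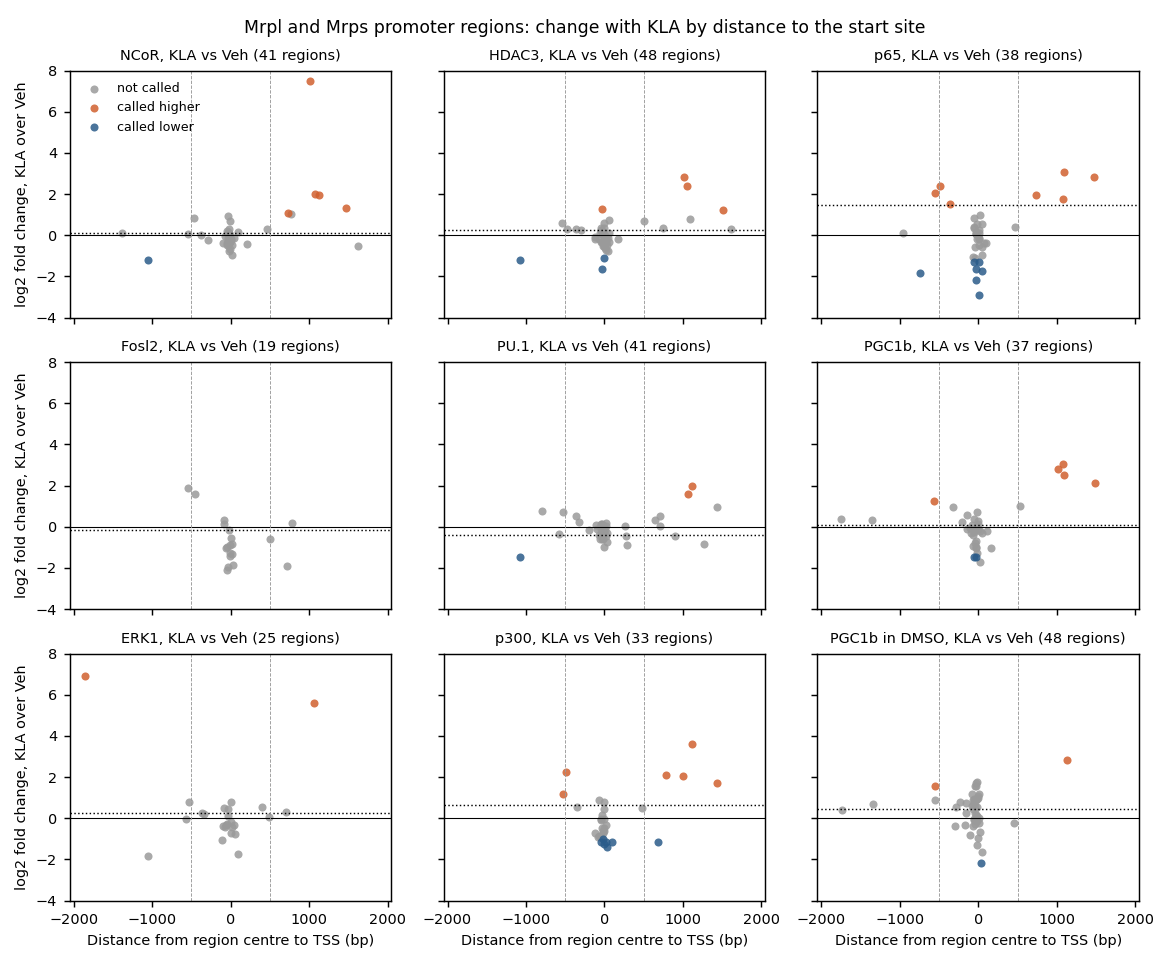
Change with KLA at MRP promoter regions in 9 comparisons of factors, with the distance of the region centre to the TSS in bp on the x axis and the log2 fold change of KLA over Veh (n = 2 libraries a group) on the y axis. Orange points were called higher, blue points lower and grey points were not called; dashed lines stand at 500 bp on either side and the dotted line is the median of all regions. Called higher points lie mostly outside the dashed lines (29 of 33) and called lower points mostly inside (17 of 22); the topmost NCoR and ERK1 points are fitted against Veh groups at 0 or 1 tag and are not measured folds.

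The intronic region of Mrpl52, centred 996 to 1061 bp into the gene, held few tags with Veh and more with KLA in 5 factors. NCoR was at 0 and 0 tags per 10 M with Veh and 19.4 and 22.1 with KLA, at least 11.7-fold higher against a floor of 3 tags over the Veh group (0 against 56 tags). ERK1 was at 0 and 1.16 tags per 10 M with Veh and 51.6 and 28.6 with KLA, or 1 against 63 tags, a ratio of 61.1 with a 95% counting interval of 10.6 to 2450. With 0 or 1 tag with Veh, both regions can be in their tables only through KLA peaks and had to be higher with KLA, so no p is given. HDAC3 rose from 8.0 and 3.87 to 22.3 and 66.7 tags per 10 M (log2 fold change 2.83 ± 0.63 (SE), adjusted p = 4.33e-05). PGC1b rose from 3.52 and 3.72 to 39.3 and 13.7 (log2 fold change 2.79 ± 0.64 (SE), adjusted p = 0.00386), and p300 from 8.78 and 7.88 to 45.5 and 24.3 (log2 fold change 2.06 ± 0.46 (SE), adjusted p = 0.00113). In each of the 5 factors both KLA libraries lay above both Veh libraries, although the KLA libraries of HDAC3 and PGC1b differed from each other by more than 2-fold.

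A second Mrpl52 region, centred 495 to 563 bp upstream of the start, rose in p65, p300 and PGC1b. p65 went from 42.9 and 29.8 to 152 and 153 tags per 10 M (log2 fold change 2.06 ± 0.28 (SE), adjusted p = 9.49e-05) and p300 from 66.4 and 60.5 to 143 and 146 (log2 fold change 1.18 ± 0.19 (SE), adjusted p = 5.05e-05). PGC1b rose in both of its tables, from 34.7 and 23.7 to 95 and 46.3 in one (log2 fold change 1.25 ± 0.38 (SE), adjusted p = 0.022) and from 21.9 and 24.8 to 61.2 and 75.9 with DMSO (log2 fold change 1.56 ± 0.48 (SE), adjusted p = 0.0234). These tables share no library. With TMM the rises of p65 (0.83) and p300 (0.67) were under 2-fold and that of PGC1b with DMSO did not pass the test (log2 fold change 1.11, adjusted p = 0.115). PU.1, already at 116 and 124 with Veh, rose to 197 and 197 (log2 fold change 0.72 ± 0.11 (SE), adjusted p = 1.49e-09), which is less than 2-fold. Fosl2 read 40.9 and 55.6 tags per 10 M with Veh and 158 and 194 with KLA, which did not pass the test (adjusted p = 0.078), although both KLA libraries were above both Veh libraries.

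Mrpl27 is the counterpart of bacterial L27, which lies beside the peptidyl transferase centre. Its start is 66 bp from that of Eme1 on the opposite strand, and its only member region lay 1091 to 1133 bp into the gene. p300 there went from 5.64 and 5.26 to 69.1 and 67.6 tags per 10 M (log2 fold change 3.63 ± 0.38 (SE), adjusted p = 5.97e-07), the largest rise among the p300 member regions. With 9 and 8 tags with Veh, the p300 region may be in its table through KLA alone, which the p does not allow for. p65 rose from 8.76 and 16.8 to 87.5 and 129 (log2 fold change 3.08 ± 0.41 (SE), adjusted p = 8.14e-05) and PU.1 from 25.3 and 22.4 to 96.2 and 94.3 (log2 fold change 1.99 ± 0.19 (SE), adjusted p = 1.38e-17). The corepressor moved the same way, and NCoR rose from 21.5 and 12.9 to 77 and 58.1 (log2 fold change 1.96 ± 0.40 (SE), adjusted p = 0.00293). PGC1b with DMSO rose from 11.4 and 1.46 to 39.5 and 62.5 (log2 fold change 2.81 ± 0.70 (SE), adjusted p = 0.0063). HDAC3 read 28.4 and 23.2 tags per 10 M with Veh and 39.3 and 50.9 with KLA, with both KLA libraries above both Veh libraries but without passing the test (adjusted p = 0.172).

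Mrpl42, a mitochondria-specific protein of the large subunit, had a region 1057 to 1087 bp into the gene in which NCoR and HDAC3 rose together. NCoR went from 9.56 and 14.1 to 47.8 and 47 tags per 10 M (log2 fold change 1.99 ± 0.44 (SE), adjusted p = 0.00438) and HDAC3 from 10.2 and 16 to 56.3 and 86.1 (log2 fold change 2.38 ± 0.47 (SE), adjusted p = 3.68e-06). It was the HDAC3 member region with the lowest p. PU.1 rose from 39.3 and 36.7 to 100.1 and 133 (log2 fold change 1.61 ± 0.17 (SE), adjusted p = 3.49e-16), PGC1b from 0.588 and 8.83 to 39.3 and 19.4 (log2 fold change 2.50 ± 0.68 (SE), adjusted p = 0.0119) and p65 from 14.9 and 12.1 to 38.1 and 54 (log2 fold change 1.76 ± 0.44 (SE), adjusted p = 0.00503). With TMM the log2 fold change of p65 was 0.53 and the region was not called.

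Mrpl57, another mitochondria-specific protein of the large subunit, had a region 1433 to 1515 bp beyond the start, in the 3′ UTR of this short gene. NCoR rose from 27.5 and 43.5 to 84.2 and 94.1 tags per 10 M (log2 fold change 1.33 ± 0.32 (SE), adjusted p = 0.00713) and HDAC3 from 32 and 26.5 to 61 and 79 (log2 fold change 1.24 ± 0.43 (SE), adjusted p = 0.0112). The largest rise was that of p65, from 11.4 and 10.3 to 73.5 and 80.7 (log2 fold change 2.82 ± 0.39 (SE), adjusted p = 0.000113). PGC1b went from 12.9 and 6.04 to 52.4 and 30.3 (log2 fold change 2.12 ± 0.48 (SE), adjusted p = 0.00379) and p300 from 7.52 and 16.4 to 32.7 and 46.5 (log2 fold change 1.73 ± 0.43 (SE), adjusted p = 0.00247). In all 5 factors the KLA libraries lay above the Veh libraries, and with TMM the rise of HDAC3 was just under 2-fold (0.99). Mrpl57 was called in 6 comparisons, Mrpl27 and Mrps28 also in 6, Mrpl42 in 7 and Mrpl52 in 8, the most of the 38 genes called at least once, and 33 genes were called in none.

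**Figure D2:**
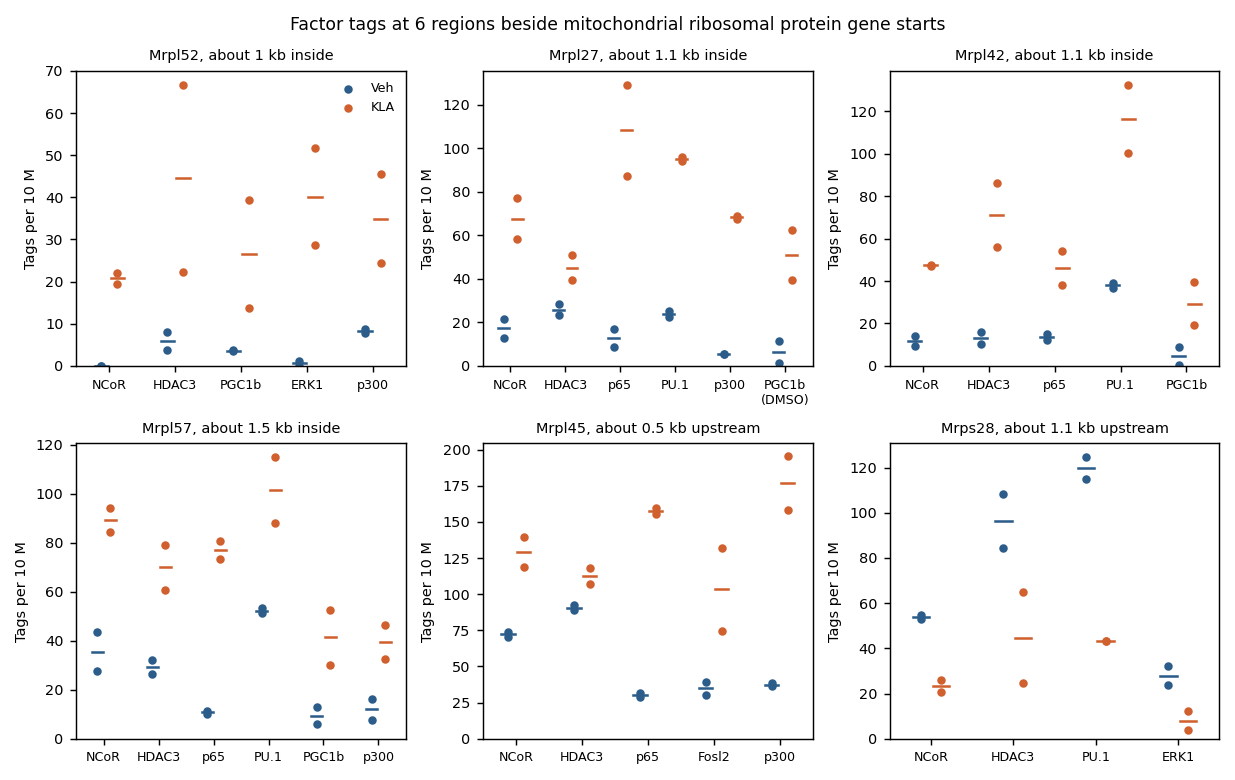
Tags per 10 M (y axis, from 0) in each library at 6 member regions away from or beside the start, one panel a region, with the factor on the x axis. Blue points are the 2 Veh libraries, orange points the 2 KLA libraries and short lines their means; 5 of the 6 regions were higher with KLA in several factors and the Mrps28 region was lower.

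At Mrpl45 a region 451 to 530 bp upstream of the TSS of the tables changed while the start itself did not pass the test. p65 rose from 31.5 and 28.9 to 156 and 159 tags per 10 M (log2 fold change 2.38 ± 0.27 (SE), adjusted p = 2.79e-05) and p300 from 38.2 and 36.8 to 196 and 158 (log2 fold change 2.24 ± 0.21 (SE), adjusted p = 1.49e-07). NCoR rose there by less than 2-fold, from 74.1 and 70.6 to 139 and 119 (log2 fold change 0.83 ± 0.24 (SE), adjusted p = 0.016). It was the only member region within 500 bp called higher for p300. At the start, p65 read 91.9 and 133 tags per 10 M with Veh and 170.3 and 159 with KLA (adjusted p = 0.0612).

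Other regions at 501 to 2000 bp rose in 1 or 2 factors. In Mrpl3, whose bacterial counterpart reaches into the catalytic centre, the intragenic region rose for NCoR from 22.7 and 30.6 to 49.4 and 62.3 tags per 10 M (log2 fold change 1.07 ± 0.37 (SE), adjusted p = 0.0358) and for p65 from 28.9 and 11.2 to 92.2 and 63.6 (log2 fold change 1.94 ± 0.44 (SE), adjusted p = 0.0027). With TMM the p65 change was 0.71 and did not pass the test (adjusted p = 0.216). In Mrpl24, a protein at the exit of the peptide tunnel, PGC1b rose from 2.35 and 4.18 to 32.8 and 24.6 (log2 fold change 3.06 ± 0.58 (SE), adjusted p = 0.000869). ERK1 at 1853 bp upstream of the Mrpl24 TSS of the tables was at 0 and 0 tags per 10 M with Veh and 27 and 12.2 with KLA, at least 10.0-fold higher against the floor of 3 tags over the group (0 against 31 tags). That region too could enter the table only through KLA. It ended at chr3:87917829, upstream of the outermost RefSeq start of the gene at base 87918131. Mrpl4, also a tunnel protein, gained p300, from 3.13 and 9.2 to 26.1 and 27 (log2 fold change 2.10 ± 0.53 (SE), adjusted p = 0.00248).

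The intergenic region upstream of Mrps28, a protein of the small subunit, went the other way. PU.1 fell from 125 and 115 to 43.2 and 43.3 tags per 10 M (log2 fold change -1.47 ± 0.16 (SE), adjusted p = 2.37e-15), the only fall called among the PU.1 members. NCoR fell from 55 and 53 to 25.9 and 20.8 (log2 fold change -1.21 ± 0.37 (SE), adjusted p = 0.0209) and HDAC3 from 108 and 84.6 to 24.6 and 65 (log2 fold change -1.21 ± 0.40 (SE), adjusted p = 0.00781). In all 3 factors the KLA libraries lay below the Veh libraries. At the start of Mrps28, PGC1b fell from 32.9 and 28.4 to 4.37 and 15.4 (log2 fold change -1.49 ± 0.50 (SE), adjusted p = 0.0376).

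The falls within 500 bp of the start concerned 12 genes. Mrps35, a mitochondria-specific protein of the small subunit, lost signal of 3 factors. HDAC3 there fell from 58.9 and 50.9 to 20.5 and 12.3 tags per 10 M (log2 fold change -1.65 ± 0.47 (SE), adjusted p = 0.00209), p65 from 40.3 and 52.2 to 10.7 and 18.5 (log2 fold change -1.66 ± 0.45 (SE), adjusted p = 0.00765) and PGC1b from 24.1 and 27.4 to 7.65 and 10.3 (log2 fold change -1.48 ± 0.49 (SE), adjusted p = 0.034). Mrpl23, a protein at the tunnel exit, had the largest p65 fall, from 54.3 and 28.9 to 4.01 and 6.84 (log2 fold change -2.92 ± 0.57 (SE), adjusted p = 0.00111), and p300 fell there from 20.1 and 29.6 to 11.3 and 7.57 (log2 fold change -1.39 ± 0.47 (SE), adjusted p = 0.0169). p65 also fell at the starts of Mrpl58 (the peptidyl-tRNA hydrolase of the ribosome), Mrpl46, Mrpl1 and Mrpl53 and 744 bp upstream of the TSS of Mrps2 in the tables (1371 bp inside the RefSeq gene), with log2 fold changes of -1.29 to -2.18. p300 fell at the starts of Mrpl14, Mrpl41, Mrpl44, Mrpl53 and Mrps18a and at 679 bp of Mrpl20, with log2 fold changes of -1.03 to -1.23. All 21 calls within 500 bp kept their sign with TMM.

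Single starts differed between factors. At Mrpl14, HDAC3 rose from 16.7 and 13.8 to 28.7 and 47.4 tags per 10 M (log2 fold change 1.27 ± 0.54 (SE), adjusted p = 0.046) where p300 fell from 37 and 36.1 to 18.9 and 16.8 (log2 fold change -1.03 ± 0.36 (SE), adjusted p = 0.0203). With TMM the rise of HDAC3 was just under 2-fold (0.99). At Mrps18a, HDAC3 fell from 53.1 and 52 to 24 and 24.6 (log2 fold change -1.11 ± 0.46 (SE), adjusted p = 0.0376). Mrpl11, the base of the stalk that recruits elongation factors, gained p65, from 27.1 and 38.2 to 87.5 and 101 (log2 fold change 1.52 ± 0.32 (SE), adjusted p = 0.00162), with a log2 fold change of 0.31 and no call with TMM. PGC1b at Mrpl11 rose from 41.7 and 43.7 to 95 and 73.2 (log2 fold change 0.96 ± 0.30 (SE), adjusted p = 0.0269), just under 2-fold, and NCoR read 122 and 146 tags per 10 M with Veh and 141 and 127 with KLA. With DMSO, PGC1b fell at the start of Mrps18b from 30.0 and 37.9 to 1.97 and 11.9 (log2 fold change -2.17 ± 0.76 (SE), adjusted p = 0.0477).

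A panel of genes chosen by role was followed by the region with the most tags of each in a table. The stalk protein Mrpl12 was at 38.2 and 34.1 tags per 10 M with Veh and 39.7 and 40.8 with KLA for NCoR and 56.7 and 63 tags per 10 M with Veh and 38.7 and 93.1 with KLA for HDAC3, neither past the test, and p300 fell there from 54.5 and 64.4 to 33.3 and 32.4 (log2 fold change -0.85 ± 0.28 (SE), adjusted p = 0.0127). Mrps16, a small-subunit protein with a bacterial counterpart, lost PU.1, from 172 and 171 to 121 and 140.2 (log2 fold change -0.39 ± 0.11 (SE), adjusted p = 0.000831), and read 57.8 and 65.3 tags per 10 M with Veh and 79.5 and 78.7 with KLA for p65 (adjusted p = 0.265). The fall of PU.1 was under 2-fold and was absent with TMM (log2 fold change 0.02, adjusted p = 0.855). Mrpl44, which has an RNase III-like fold, lost p300 from 26.3 and 36.8 to 15.3 and 13 (log2 fold change -1.15 ± 0.41 (SE), adjusted p = 0.021). Mrps27, a member of the pentatricopeptide repeat family, lost p300 from 43.9 and 61.8 to 38.9 and 19.5 (log2 fold change -0.85 ± 0.34 (SE), adjusted p = 0.0407). Of the panel, Mrps6 and Mrps7 had no member row. Mrpl37, Mrps12 and Mrps22 had member rows for H3K27ac only, so no factor could be tested there. Mrpl10, Mrps18b and Mrps30 had no call in the WT factor tables other than that of Mrps18b with DMSO.

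ERK inhibition was compared within the KLA-treated cells. For PGC1b with ERKi against DMSO, edgeR called 0 of 48 member regions, with 7 at an unadjusted p below 0.05 and 0 by DESeq2, where 0.187% of promoter regions and 0.286% of all regions were called. The Mrpl27 region read 39.5 and 62.5 tags per 10 M with DMSO and 65.7 and 32.3 with ERKi, and the Mrpl52 region upstream of the start 61.2 and 75.9 tags per 10 M with DMSO and 82.9 and 63.4 with ERKi. For NCoR with ERKi, 16 of 44 member regions were called lower (36.4%) and none higher, against 38.9% of promoter regions and 48.6% of all regions called lower and 0.459% and 0.634% higher. The KLA libraries without ERKi are those that were compared with Veh above. Mrpl45 at 468 bp upstream went from 139 and 119 without ERKi to 22.8 and 37.9 with it (log2 fold change -2.08 ± 0.31 (SE), adjusted p = 0.000258), Mrpl42 from 47.8 and 47 to 8.45 and 8.62 (log2 fold change -2.46 ± 0.51 (SE), adjusted p = 0.0018) and Mrpl27 from 77 and 58.1 to 22.8 and 25.9 (log2 fold change -1.47 ± 0.40 (SE), adjusted p = 0.00859). Mrpl40, a start that had not changed with KLA, went from 41.3 and 51.9 to 8.45 and 6.03 (log2 fold change -2.67 ± 0.48 (SE), adjusted p = 0.000794). The ERKi libraries had 15.0% and 15.8% of their tags in the regions and the KLA libraries without ERKi 33.3% and 34.2%, and with TMM, which shifted this comparison by 1.16 on the log2 scale, 0 member regions were called by edgeR. DESeq2, with size factors of its own, called 1. The summed NCoR tags of 9 macrophage promoters were 2065 to 2403 per 10 M without ERKi and 914 to 987 with it, and the part of this in the result was not tested. The ERKi libraries also carry another date than the KLA libraries, and the labels of these KLA libraries name no DMSO. The inhibitor, its solvent and the date therefore cannot be told apart.

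In osteoclast culture the markers Acp5, Ctsk and Ocstamp together rose in p300 signal from 106 to 127 tags per 10 M on day 0 to 532 to 587 on day 4. Members moved less. Of 20 p300 member regions 3 were called higher (15%), against 30.5% of promoter regions and 62.5% of all regions, with medians of 0.64, 1.00 and 1.84 on the log2 scale. Mrps31 went from 1.76 and 2.13 on day 0 to 38.1 and 18.1 tags per 10 M on day 4, or 3 against 55 tags, a ratio of 15.5 with a counting interval of 5.03 to 77.3. Mrpl20 at 691 bp went from 9.67 and 0 to 29.3 and 29.5 (log2 fold change 2.19 ± 0.78 (SE), adjusted p = 0.0273) and Mrpl41 from 4.4 and 8.52 to 23.5 and 21.6 (log2 fold change 1.95 ± 0.66 (SE), adjusted p = 0.0214). On day 0 Mrpl20 held 11 and 0 tags and Mrpl41 5 and 4. All 3 regions may be in their table through day 4 peaks alone and would then tend to be higher, which the p-values do not allow for. With TMM, a shift of -1.62, none of the 3 was called and 6 other member regions were called lower. For ERK1 edgeR called 0 of 17 member regions, with 1 at an unadjusted p below 0.05 and 0 by DESeq2, against 1.5% of promoter regions and 2.35% of all. The second day 4 library differs from the others in its label, as said above, and without it edgeR also called 0. Mrpl45 led there with 26.7 and 34.7 tags per 10 M on day 0 and 51.3 and 69.3 on day 4.

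H3K27ac at the start of Mrpl30, a large-subunit protein, rose with KLA in each of the 5 genotypes or solvents in which the comparison was made. With DMSO it went from 49 and 59.3 to 256 and 190.2 tags per 10 M (log2 fold change 2.05 ± 0.24 (SE), adjusted p = 1.76e-16). In Pgc1b flox cells it went from 76.9 and 78.3 to 323 and 303 (log2 fold change 2.01 ± 0.13 (SE), adjusted p = 2.35e-48) and in Pgc1b flox Cre cells from 74.2 and 96.2 to 298 and 293 (log2 fold change 1.80 ± 0.13 (SE), adjusted p = 3.92e-39). In the smaller regions of the other table it went from 18.3 and 11.2 to 33.3 and 29 in WT cells (log2 fold change 1.09 ± 0.37 (SE), adjusted p = 0.039) and from 10.3 and 13.3 to 51 and 60.4 in NKO cells (log2 fold change 2.21 ± 0.38 (SE), adjusted p = 2.91e-05). KLA libraries lay above Veh libraries in all 5. The WT call was lost with TMM (log2 fold change 0.95, adjusted p = 0.0770), and the difference between NKO and WT in the response did not pass the test (adjusted p = 0.335). The window also covers the start of Mitd1, so the 2 genes cannot be told apart.

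**Figure D3:**
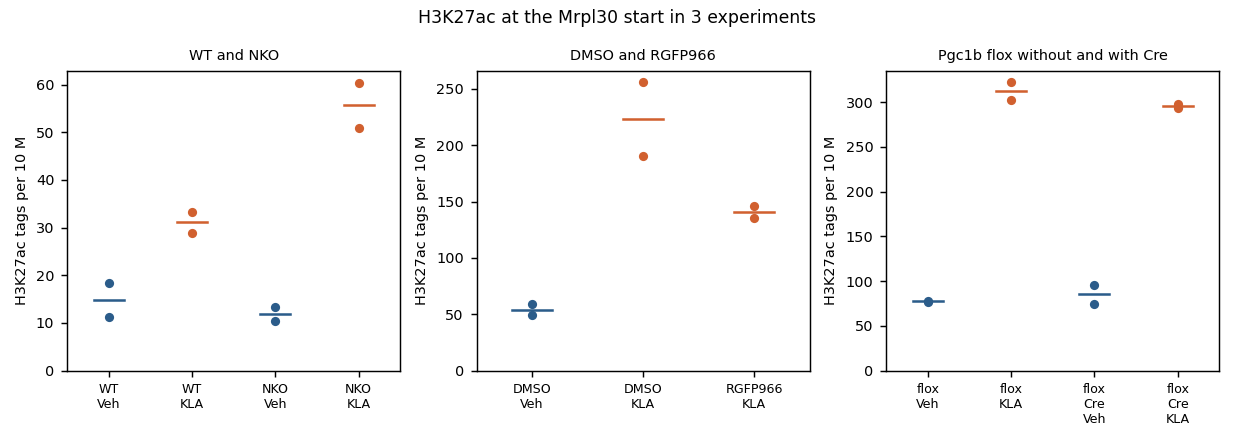
H3K27ac at the Mrpl30 start in tags per 10 M (y axis, linear from 0) in each library of the 3 H3K27ac tables, with the groups on the x axis and lines at the means. Every group with KLA lies above the Veh group of the same cells, and the RGFP966 libraries (146 and 135) lie between the DMSO groups.

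Few other members changed in H3K27ac with KLA. In WT cells 2 of 46 tested member regions were called, both higher (4.35%), against 7.78% of promoter regions and 10.2% of all. The second was Mrps28 at 347 bp, from 12 and 17.8 to 46.5 and 29.6 tags per 10 M (log2 fold change 1.34 ± 0.39 (SE), adjusted p = 0.0121). This rise was not seen in WT cells with DMSO, where the window at 347 bp held more tags. It read 110 and 114 with Veh and 120 and 108 with KLA (edgeR log2 fold change 0.02, adjusted p = 0.949). In NKO cells 2 of 46 were called, both higher (4.35%), against 7.38% and 10.7%, the second being Mrpl32, a protein matured by a protease of the inner membrane, from 5.9 and 9.29 to 25 and 16 (log2 fold change 1.41 ± 0.48 (SE), adjusted p = 0.0393). With DMSO 3 of 46 were higher and 2 lower (10.9%), against 20.0% and 34.8%. There Mrpl32 rose from 56.5 and 61.1 to 148 and 88.4 (log2 fold change 1.02 ± 0.25 (SE), adjusted p = 0.000131) and the window upstream of Mrpl52 from 174 and 145 to 389.8 and 332 (log2 fold change 1.18 ± 0.20 (SE), adjusted p = 4.95e-08), the stretch where p65, p300 and PGC1b also rose. Mrpl41 fell from 108 and 89 to 49.9 and 40.4 (log2 fold change -1.12 ± 0.26 (SE), adjusted p = 6.05e-05) and Mrps23 from 166 and 158 to 83.5 and 65.6 (log2 fold change -1.11 ± 0.23 (SE), adjusted p = 8.57e-06), both by less than 2-fold with TMM. With TMM the calls became 1 higher and 1 lower in WT cells and 4 higher and 0 lower with DMSO.

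NCoR deletion left no called change among the members. For NKO against WT, edgeR and DESeq2 each called 0 of 46 regions with Veh and with KLA and 0 in the difference of the KLA responses, against 0.526%, 0.465% and 0.526% of promoter regions and 1.0%, 0.789% and 0.697% of all regions. At an unadjusted p below 0.05 there were 6, 5 and 7. Mrpl48 at 56 bp upstream read 78.2 and 80.5 tags per 10 M in WT and 84.8 and 99.8 in NKO cells with Veh, and with KLA 74.2 and 95.1 in WT and 92.9 and 99.3 in NKO cells. The member windows of this table held few tags, with 6 of 52 under the minimum for testing and a median of 59.6 tags per 10 M and kb, so that small differences were not detectable.

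RGFP966 lowered H3K27ac at MRP starts in the presence of KLA, with a share of calls near that of promoter windows. Of 46 member windows 12 were called lower (26.1%) and none higher, where 23.2% of promoter windows and 9.53% of all windows were called lower and 6.56% and 26.9% higher. Within 500 bp of the TSS 11 of 43 member windows were called lower, against 26.9% of all windows at that distance. At any fold 32 of 46 fell, against 49.9% of promoter windows and 22.3% of all. Both RGFP966 libraries lay below both libraries of DMSO and KLA in 42 windows (as in 57.1% of promoter windows and 25.6% of all). The median log2 fold change of the members was -0.78, that of promoter windows -0.57 and that of all windows 0.39. In levels, the median of the members went from 60.4 (DMSO and Veh) and 63.5 (DMSO and KLA) to 35.2 tags per 10 M with RGFP966 and KLA, that of other promoters from 97.7 and 83.7 to 60.7, and that of distal windows from 60.3 and 35.6 to 73.0. With TMM, a shift of -0.34, 29 member windows were called lower and 46 of 46 lay below 0, with a median of -1.12, against -0.91 in promoter windows.

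**Figure D4:**
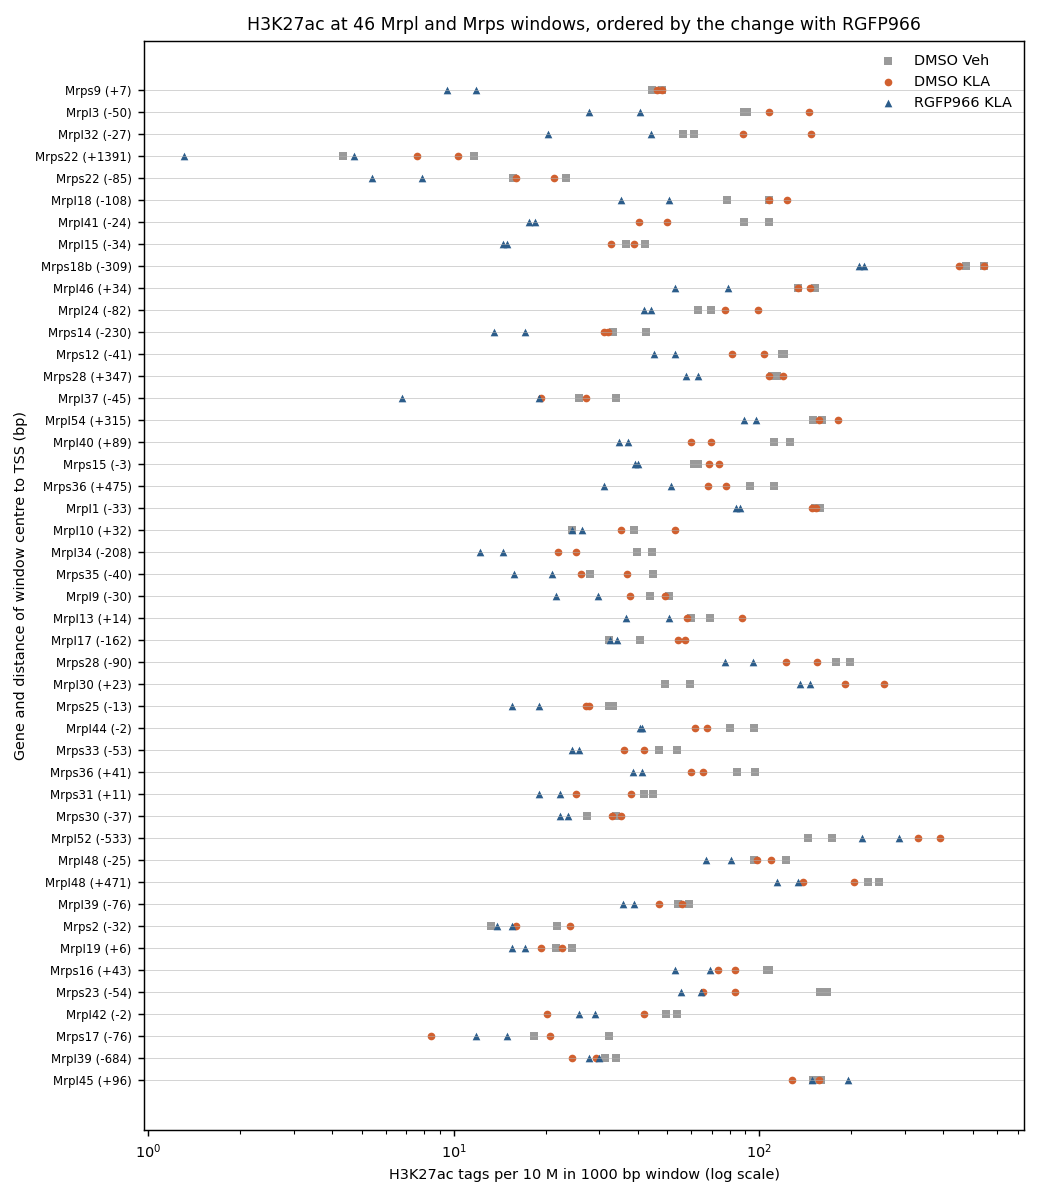
H3K27ac at the 46 member windows in tags per 10 M (x axis, log scale), with a point for each of the 2 libraries a group. The windows are ordered on the y axis by the change with RGFP966. Grey squares are DMSO and Veh, orange circles DMSO and KLA, and blue triangles RGFP966 and KLA. The log2 fold change of RGFP966 and KLA over DMSO and KLA is below 0 in 44 of 46 windows.

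The largest fall was at Mrps9, the small-subunit counterpart of bacterial S9, whose upstream sequence is shown above. It went from 47.9 and 46.3 tags per 10 M with DMSO and KLA to 11.8 and 9.48 with RGFP966 and KLA (log2 fold change -2.13 ± 0.35 (SE), adjusted p = 9.59e-09), against 48.2 and 44.5 with DMSO and Veh. Mrpl3 fell from 145 and 108 to 40.8 and 27.8 (log2 fold change -1.88 ± 0.25 (SE), adjusted p = 5.07e-12) and Mrpl32, which had risen with KLA, from 148 and 88.4 to 44.1 and 20.3 (log2 fold change -1.88 ± 0.26 (SE), adjusted p = 1.25e-11). These 3 windows ended below their level with DMSO and Veh, as did most members: both RGFP966 libraries lay below both libraries of DMSO and Veh in 39 windows. The median of other promoters, given above, was also lower with RGFP966 and KLA than with DMSO and Veh. The libraries of DMSO and KLA are the same as in the comparison with DMSO and Veh. The promoter with the most H3K27ac of any member, that of Mrps18b and Ppp1r10, fell from 545 and 452 to 220.5 and 213 (log2 fold change -1.20 ± 0.19 (SE), adjusted p = 9.01e-09). Mrps22, a mitochondria-specific small-subunit protein, fell at the start from 21.4 and 16 to 7.9 and 5.42 (log2 fold change -1.49 ± 0.48 (SE), adjusted p = 0.00454) and also at 1391 bp. Mrpl18, Mrpl41, Mrpl15, Mrpl46, Mrpl24 and Mrps14 fell with log2 fold changes of -1.03 to -1.43. Mrpl30 kept part of its rise with KLA, at 146 and 135 with RGFP966 (log2 fold change -0.67 ± 0.21 (SE), adjusted p = 0.00374), and so did the window upstream of Mrpl52, at 286 and 217 (log2 fold change -0.52 ± 0.20 (SE), adjusted p = 0.0146).

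Other lists of housekeeping genes are given beside the MRP members. With RGFP966, 7 of 12 windows of mitochondrial tRNA synthetases were called lower (median log2 fold change -1.08), 12 of 23 of mitochondrial translation factors and ribosome assembly (-1.02), 3 of 7 of mitochondrial transcription factors (-0.88), 26 of 59 of the respiratory chain (-0.88) and 23 of 56 of cytosolic ribosomal proteins (-0.86). No window of these lists was called higher. The list of translation factors and ribosome assembly also names proteins of the mitochondrial ribosome itself, such as Dap3 and Ptcd3. It is therefore not wholly separate from the MRP genes. For p300 with KLA, 10 of 45 regions of the respiratory chain were called lower and 2 higher (-0.66), and 5 of 54 of cytosolic ribosomal proteins lower and 5 higher (-0.61). For p65 the respiratory chain had 7 of 54 higher and 8 lower, with a median of -0.54. The medians of the MRP members, -0.78 with RGFP966, -0.46 for p300 and 0.06 for p65, lay on the same side as these lists of the respiratory chain and of cytosolic ribosomal proteins for the first 2 and not for p65, and with TMM the p65 median of the members was -1.16, that of the respiratory chain -1.76 and that of cytosolic ribosomal proteins -1.51. For p300 the 2 regions of mitochondrial tRNA synthetases went the other way, with a median above 0 and 1 called higher. In the table of RGFP966 the summed H3K27ac of 9 macrophage promoters was 3493 to 4257 tags per 10 M with DMSO and KLA and 2750 to 3195 with RGFP966, and the part of this in the result was not tested.

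Between Pgc1b flox Cre and Pgc1b flox cells no member window was called in H3K27ac. In Pgc1b flox cells KLA gave 1 call of a higher level and 3 of a lower one among 46 windows (8.70%), against 19.1% of promoter windows and 30.8% of all. In Pgc1b flox Cre cells it gave 1 and 5 (13.0%), against 22.5% and 36.7%. Mrpl40 fell in both, from 206 and 195 to 96.7 and 94.9 tags per 10 M in flox (log2 fold change -1.07 ± 0.15 (SE), adjusted p = 5.41e-12) and from 143 and 171 to 57.1 and 63.2 in flox Cre cells (log2 fold change -1.38 ± 0.17 (SE), adjusted p = 1.17e-15). Mrpl34 also fell in both, Mrps23 in flox, and Mrpl41, Mrpl42 and Mrps36 in flox Cre cells, and with TMM none of these falls reached 2-fold, while 3 windows in flox and 4 in flox Cre cells were called higher. For flox Cre against flox, edgeR and DESeq2 called 0 windows with Veh, with KLA and in the difference of the KLA responses, against 0.28%, 3.98% and 2.46% of promoter windows and 0.397%, 7.52% and 5.37% of all, with 16, 19 and 6 members at an unadjusted p below 0.05. At any fold 15 of 46 windows were lower in flox Cre cells with KLA and none higher, against 48.1% of promoter windows and 41.5% of all lower, and with TMM 3 were higher and 0 lower. The median was -0.34, against -0.36 in promoter windows and -0.38 in all, and 0.06 with TMM. Mrpl1 there read 202 and 221 tags per 10 M in flox and 137 and 118 in flox Cre cells (log2 fold change -0.73 ± 0.13 (SE), adjusted p = 2.33e-07). With TMM the change at Mrpl1 was -0.34 (adjusted p = 0.0508). The summed H3K27ac of 9 macrophage promoters was 3747 to 3853 in flox and 2013 in flox Cre cells with KLA, and its part in the result was not tested.

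**Figure D5:**
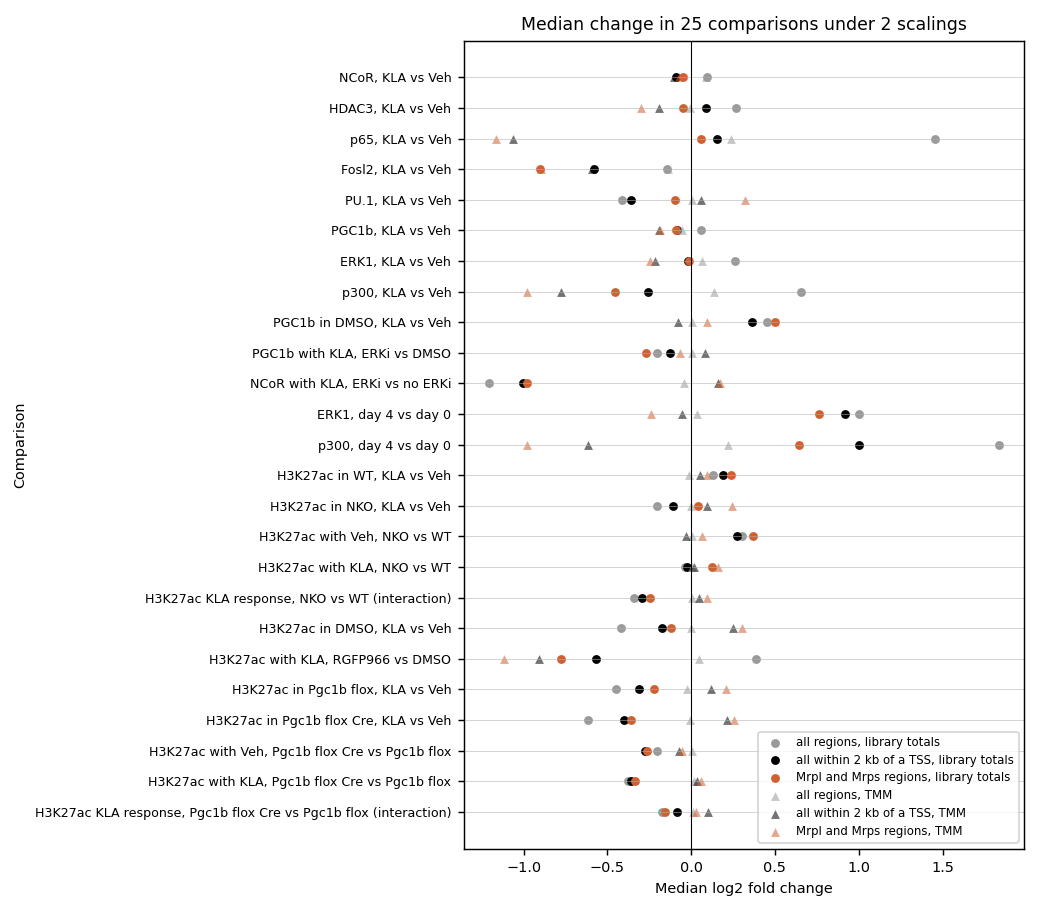
Median log2 fold change (x axis) of all regions, of promoter regions and of MRP member regions in the 25 comparisons (y axis), with library totals as circles and TMM as triangles. The members lie below all regions for p65, p300 and RGFP966 (0.06 against 1.46, -0.46 against 0.65 and -0.78 against 0.39). Promoter regions lie nearer the members in these 3, with medians of 0.15, -0.26 and -0.57. The scaling moves the medians by over 0.1 in 22 comparisons.

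Near the limit of 2000 bp, the outermost member rows inside it included Mrpl24 at 1853 bp upstream in the ERK1 table (9.82 tags per 10 M over all libraries), Mrpl4 at 1748 bp upstream in the PGC1b table (23.4, and 263 bp from the outermost RefSeq start) and Mrpl23 at 1621 bp in the NCoR table (31.6). Just outside lay Mrpl16 at 2037 bp upstream in PGC1b (53.8), Mrpl48 at 2104 bp upstream in PU.1 (62.5) and Mrpl30 at 2152 bp in p65 (11.7). Mrpl17 at 2540 bp, also outside, held 89.8 in NCoR and 123 in HDAC3.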

How the data were processed

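The series held 100 ChIP-seq samples in 50 groups of 2 libraries, for H3K27ac and 8 factors, from mouse BMDMs and bone marrow cells. The authors deposited raw tag counts per region and library in 15 tables (74 count columns of 70 libraries), and 30 input samples were not used here. The methods and labels state alignment by Bowtie2 (mm10) and tag handling in HOMER. Factor peaks were kept by reproducibility between replicates and merged over conditions, and at most 3 tags per position were counted. H3K27ac was counted over open chromatin, in windows of 1000 bp in the RGFP966 and Pgc1b tables. The versions of these programs are not given in the sources used here. A region called in any condition entered its table, so a region can be in a table through 1 condition alone. The region name given by HOMER is that of the nearest TSS.

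Counts were tested with the quasi-likelihood F-test of edgeR 4.0.16 (R 4.3.3, two-sided) on library totals from the column headers, over all rows of a table with 4 tags (16 for H3K27ac) in any library, and p-values were adjusted by Benjamini-Hochberg over all tested rows. All groups of a table shared one estimate of the spread. Alternatives were TMM scaling, DESeq2 1.42.0, a fit of all rows without the filter, the replicate number as a block, and each library left out. The fits were tested on simulated data. Counting intervals are exact at 95% and, like the floor of 3 tags, cover counting error only. Tables were made and tested with python 3.11.15, numpy 2.4.6, pandas 2.3.3, scipy 1.17.1 and matplotlib 3.10.9.

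The members, gene lists and motifs were chosen with earlier results of these data known, so no list is independent evidence. The genes named are, in each comparison, the called member with the lowest p in each direction; in each table, the 3 members with the most tags; a panel of 15 genes by role; the 5 genes called most often; the members at the distance limit; and, chosen after their values were seen, further members of the same stretches. Other lists were mitochondrial tRNA synthetases, translation and assembly factors (with ribosomal proteins not named Mrpl or Mrps), transcription factors, the respiratory chain and cytosolic ribosomal proteins. Markers were of macrophages, T cells, B cells, fibroblasts, neutrophils and osteoclasts.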

Additional observations from a re-analysis of the deposited data

Results flagged for a closer look

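At 3 of 46 member windows the H3K27ac response to KLA differed with and without Cre in the Pgc1b flox cells (adjusted p below 0.05, interaction term of edgeR across all windows). None of these differences reached 2-fold, while 2.46% of promoter windows and 5.37% of all windows were called at over 2-fold. The share of all windows that passed at any fold was not counted, so the 3 cannot be set against it. With TMM the difference at Mrpl3 was 0.96 (adjusted p = 0.00855), while those at Mrpl52 (-0.36, adjusted p = 0.0815) and Mrps28 (-0.31, adjusted p = 0.254) did not pass the test. Upstream of Mrpl52, at 533 bp, the level was 241 and 245 tags per 10 M with Veh and 309 and 354 with KLA in flox cells, and in flox Cre cells 236 and 237 with Veh and 246 and 198 with KLA (difference of log2 fold changes -0.54 ± 0.15 SE, adjusted p = 0.0024). The window rose in flox cells and the flox Cre groups overlapped.

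At 347 bp of Mrps28 the level was 183 and 199 with Veh and 204 and 223 with KLA in flox cells, and in flox Cre cells 193 and 170.5 with Veh and 137 and 150.4 with KLA (difference -0.50 ± 0.18, adjusted p = 0.031). At the start of Mrpl3 it was 83.6 and 74.8 with Veh and 75.3 and 76.9 with KLA in flox cells, and in flox Cre cells 59.9 and 47.8 with Veh and 105 and 71.6 with KLA (difference 0.77 ± 0.28, adjusted p = 0.0378). Mrpl3 was the one of the 3 in which the response was higher with Cre.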

How the results depend on the processing

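With 2 libraries a group, few tags at many members and no normalization to an outside standard, the scaling decides several counts. TMM moved the median of all regions by over 0.1 on the log2 scale in 22 of the 25 comparisons (-1.62 to 1.16). The number of members called became 25 for p65 (14 with library totals), 3 for Fosl2 (0), 6 for PU.1 (3), 21 for p300 (13), 0 for NCoR with ERKi (16), 6 for p300 on day 4 (3) and 29 for RGFP966 (12). Shares of all regions called were counted for edgeR on library totals alone, so the counts of members under other settings have none beside them. DESeq2 called 24 for p65, 3 for Fosl2, 6 for PU.1, 20 for p300, 1 for NCoR with ERKi, 1 for H3K27ac in WT cells (2), 25 for RGFP966 and 2 for Pgc1b flox cells (4). Leaving out the filter changed the count in 2 of the 25 comparisons, to 3 for H3K27ac in WT cells and 11 for RGFP966. Replicate numbers did not pair the libraries: deviations of libraries with the same number had correlations of -0.0266 to 0.0255 (31 correlations). With the number as a block, ERK1 had 1 call (2) and p300 on day 4 had 0 (3).

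Without 1 library the counts ranged from 0 to 8 for NCoR (6; 0 without KLA replicate 1 and 1 without KLA replicate 2), 1 to 9 for HDAC3 (7; 1 and 2 without Veh replicates 1 and 2), 7 to 20 for p65 (7 without either KLA library), 0 to 9 for Fosl2 (4 and 9 without KLA replicates 1 and 2), 4 to 5 for PU.1, 3 to 10 for PGC1b (7; 3 without either Veh library), 0 to 2 for ERK1 (0 and 1 without KLA replicates 1 and 2), 5 to 15 for p300 (5 without KLA replicate 2), 0 to 2 for PGC1b with DMSO (3; 1 and 0 without Veh replicates 1 and 2, 1 without KLA replicate 2), 7 to 16 for NCoR with ERKi (8 and 7 without KLA replicates 1 and 2), 0 to 7 for p300 on day 4 (6 and 7 without day 0 replicates 1 and 2, 0 without either day 4 library), and 9 to 16 for RGFP966. For H3K27ac with KLA they were 0 to 3 in WT (0 without KLA replicate 1 or Veh replicate 1, 1 without Veh replicate 2), 1 to 2 in NKO (1 without KLA replicate 1 or either Veh library), 3 to 6 with DMSO (5; 3 without KLA replicate 2 or Veh replicate 1), 3 to 5 in flox and 4 to 6 in flox Cre cells. Flox Cre against flox gave 0 to 1 with KLA and 0 to 1 in the difference of responses. A lone library was taken to vary like the other groups.

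Of the 26 members with the lowest p, none reversed. With TMM and with DESeq2 21 kept their call and 5 lost it (Mrpl45 for NCoR with ERKi, Mrps31 on day 4, and the H3K27ac falls at Mrps23 with DMSO and in flox and at Mrpl40 in flox Cre cells). Leaving out 1 library kept 81 calls and lost 23, and the block lost 2 of 26. The cause of these differences was not tested.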

Other observations

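Other lists of nuclear genes for mitochondria were followed in the same tables, with KLA against Veh. In NCoR, 3 of 53 regions of the respiratory chain were called higher and 3 lower (median log2 fold change -0.41), 2 of 12 of mitochondrial transcription factors higher (0.53), and 1 of 19 of translation factors and ribosome assembly higher and 2 lower (-0.36). Cytosolic ribosomal proteins had 6 of 57 higher and 1 lower (-0.07). In HDAC3 the respiratory chain had 5 of 43 higher and 3 lower (-0.29). These counts stand against 40.1% of all NCoR and 38.8% of all HDAC3 regions called.

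Neutrophil markers had regions for 1 to 3 of 5 genes in each table and osteoclast markers for 1 to 4 of 6. The NCoR signal of Acp5, Ctsk, Nfatc1 and Ocstamp summed to 358 to 431 tags per 10 M with Veh and 209.8 to 219 with KLA.

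The 7 MRP genes without a member row had regions at their starts that were listed under a neighbour: Mrps11 under Mrpl46, Mrps7 under Gga3, Mrps6 under Slc5a3, Mrps5 under Zfp661, Mrps26 under 4930473A02Rik, Mrpl21 under Ighmbp2 and Mrpl50 under Zfp189. Mrps11, a small-subunit protein, and Mrpl46, a large-subunit protein, start 42 bp apart on opposite strands, so the Mrpl46 values given above for p65 and RGFP966 cannot be assigned to either gene. The counts of members by name therefore leave out these starts.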
